A study of Mus musculus with 22 samples.

Results

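The genes described here build and decorate the glycans of secreted and cell-surface proteins. They are the GalNAc-transferases that start mucin-type O-glycans (Galnt), the carbohydrate sulfotransferases (Chst), the sulfotransferases of heparan sulfate (Ndst, Hs2st, Hs3st and Hs6st), the sialyltransferases (St3gal, St6gal, St6galnac and St8sia), the B3gnt and B4galt enzymes that extend sugar chains, and the fucosyltransferases (Fut). They were chosen by gene name alone, from the first letters of the symbol in the table of expressed genes, which gave 90 entries of 28711. Of the 90, 89 were protein-coding and 1, Galnt6os, was a long noncoding RNA antisense to Galnt6. The 90 entries carried 89 symbols, since St6galnac2 stood on 2 gene identifiers.

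RNA from whole first mandibular molars of mice was sequenced in 22 libraries. The 4 groups were P11 Het (n = 5), P11 WT (n = 5), P5 Het (n = 6) and P5 WT (n = 6), with the age given as the postnatal day (P). Het mice carried 1 copy of the Tgfbr2 G357W allele, a model of Loeys-Dietz syndrome type II, and WT mice were their Tgfbr2 +/+ littermates. The labels name no transgene or Cre driver. Because the allele is a point mutation, the Tgfbr2 count does not check the genotype. Against these 22 libraries the series lists 5 Het and 8 WT animals. A mouse may therefore stand behind more than 1 library, which would make the p-values smaller than they should be. The library P5 Het 6 is P5 by its title and P11 by its tissue and treatment fields. It was used as P5. Its enamel genes lay with the P5 libraries: Amelx at 44030 CPM and Enam at 27030 CPM, against at most 4447 and 2713 CPM in any P11 library, and Odam at 1250 CPM, against at least 57910 CPM in every P11 library.

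Mucin-type O-glycans begin when a GalNAc-transferase places N-acetylgalactosamine on a serine or threonine, and galactose, N-acetylglucosamine, fucose and sialic acid are then added in turn. Heparan, chondroitin, dermatan and keratan sulfate are long chains on proteoglycans, and the position of their sulfate groups sets which growth factors and matrix proteins bind them. In teeth, enamel and dentin matrix proteins are glycosylated while ameloblasts and odontoblasts secrete them, and the dental pulp and predentin are rich in proteoglycans.

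Library totals ran from 32903949 to 45343744 counts, and together the 90 genes held 0.319 to 0.429% of the counts in P11 Het, 0.308 to 0.356% in P11 WT, 0.311 to 0.357% in P5 Het and 0.311 to 0.375% in P5 WT libraries. Levels are given as CPM, a count divided by the TMM-scaled library size in units of 1e6 counts. The tissue label was checked on marker genes. The 4 secretory ameloblast genes (Amelx, Ambn, Enam and Mmp20) summed to 18300 to 44700 CPM in P11 Het, 17300 to 26100 in P11 WT, 122000 to 162000 in P5 Het and 153000 to 168000 in P5 WT libraries. The 8 maturation ameloblast genes summed to 59700 to 83900 CPM in P11 Het, 60100 to 71700 in P11 WT, 1050 to 1860 in P5 Het and 1580 to 2730 in P5 WT libraries. Genes of oral keratinocytes (11 genes) summed to 127 to 1050 CPM in P11 Het, 124 to 1530 in P11 WT, 42.1 to 61.5 in P5 Het and 36.4 to 51.2 in P5 WT libraries, and 5 libraries (P11 Het 2, P11 WT 4, P11 WT 5, P5 Het 4 and P5 Het 5) stood out for these genes or for skeletal muscle genes. The first digit of the library name was 1 or 2 at P11 and 3, 4 or 5 at P5, so what that digit stands for and age cannot be told apart. In whole molars, fewer cells of a type and less RNA per cell cannot be told apart.

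Of the 90 genes, 81 had enough counts to be tested and 9 did not: B3gnt6, Chst9, Fut7, Galntl5, Hs3st2, Hs3st4, Hs6st3, Ndst4 and St6galnac1. The group means of these 9 lay at or below 0.256 CPM. The library kit does not mark strand, and 32 of the 90 genes overlap exons of another gene. For 55 of them no window of 100 bases in their exons occurs in another gene. Galnt2 shares 86.1% of such windows and B3gnt2 63.0% with other gene models, so their low levels, 0.264 to 0.777 CPM and 0.625 to 1.6 CPM over all libraries, are uncertain.

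The promoters of 4 of the genes that differed most between the ages are printed here, to stand beside the age differences described below. Of the 90 entries, 69 had a promoter in the RefSeq table. Each is the 250 bases before the RefSeq start on GRCm38.p6, 5′ to 3′ on the gene's strand. Chst1 and St3gal4 fell at P11, and their windows are chr2:92600867-92601116 (+) and chr9:35116865-35117114 (−). Hs3st3b1 fell and Hs3st3a1, which encodes an enzyme of the same reaction, rose, with windows chr11:63922285-63922534 (−) and chr11:64435082-64435331 (+). Capitals mark matches, on either strand, to GGGCGG, the GC box. The E-box CAGGTG of the Snail type, the SMAD box CAGACA, the RUNX core TGTGGT, the homeodomain core TAATTA and the TATA box TATAAA were also searched on both strands, and none of them matched in these windows.
Chst1: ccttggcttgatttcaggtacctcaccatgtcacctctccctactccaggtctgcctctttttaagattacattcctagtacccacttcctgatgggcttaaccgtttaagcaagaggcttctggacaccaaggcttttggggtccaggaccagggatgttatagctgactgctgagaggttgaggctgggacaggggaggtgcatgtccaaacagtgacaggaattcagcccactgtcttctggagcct
St3gal4: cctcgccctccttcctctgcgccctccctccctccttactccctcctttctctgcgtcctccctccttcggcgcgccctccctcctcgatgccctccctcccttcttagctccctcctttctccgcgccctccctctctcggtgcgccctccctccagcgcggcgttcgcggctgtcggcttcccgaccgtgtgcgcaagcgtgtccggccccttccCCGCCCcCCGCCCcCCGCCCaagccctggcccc
Hs3st3b1: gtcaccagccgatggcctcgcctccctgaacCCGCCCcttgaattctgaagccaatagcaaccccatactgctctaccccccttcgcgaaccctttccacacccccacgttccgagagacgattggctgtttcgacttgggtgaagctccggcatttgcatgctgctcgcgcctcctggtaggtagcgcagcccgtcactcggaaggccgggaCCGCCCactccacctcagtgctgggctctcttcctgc
Hs3st3a1: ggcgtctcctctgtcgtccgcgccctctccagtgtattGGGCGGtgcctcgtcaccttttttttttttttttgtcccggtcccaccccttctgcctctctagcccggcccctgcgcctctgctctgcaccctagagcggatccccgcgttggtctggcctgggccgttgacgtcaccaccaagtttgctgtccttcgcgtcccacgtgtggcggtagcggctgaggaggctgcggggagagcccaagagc

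The GC box occurred 3 times in St3gal4, 2 times in Hs3st3b1, 1 time in Hs3st3a1 and 0 times in Chst1, and no matches overlapped. Of the 32851 promoter windows of the same length in the RefSeq table, 32.7% held a GC box. The motifs without a match were held by 17.2% (CAGGTG), 17.1% (CAGACA), 14.0% (TGTGGT), 4.84% (TAATTA) and 12.4% (TATAAA) of all promoters. The windows of Chst1 and St3gal4 lie inside the longer gene spans of GENCODE M21, so annotated starts lie upstream of them. The bases just after the RefSeq start of Chst1 were found near the start of no GENCODE M21 transcript of that gene, unlike those of the other genes printed. The Chst1 window and its 0 GC boxes may thus not belong to a start annotated in GENCODE. Exons of St3gal4 and Hs3st3a1 overlap exons of genes on the opposite strand, 4930581F22Rik and F930015N05Rik.

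By level, the set was dominated by 1 gene. B4galt1, which adds galactose to N-acetylglucosamine on N- and O-glycans, averaged 326 CPM per kb of exon over the 4 group means. It held 39.5 to 58.4% of the counts of the 90 genes in P11 Het, 39.5 to 47.7% in P11 WT, 27.1 to 37.3% in P5 Het and 23.3 to 38.8% in P5 WT libraries. The next levels were 44.6 CPM per kb for Chst1, 44.1 for Galnt12, 29.8 for Chst2, 26.5 for Galnt6 and 22.8 for St3gal4. Galnt1 (14.6), St6galnac6 (13.5), Ndst2 (11.7), St3gal5 (11.6), St3gal2 (11.6) and B3gntl1 (10.4 CPM per kb) completed the 12 highest. The highest fucosyltransferase was Fut11, at 5.08 CPM per kb.

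**Figure D1:**
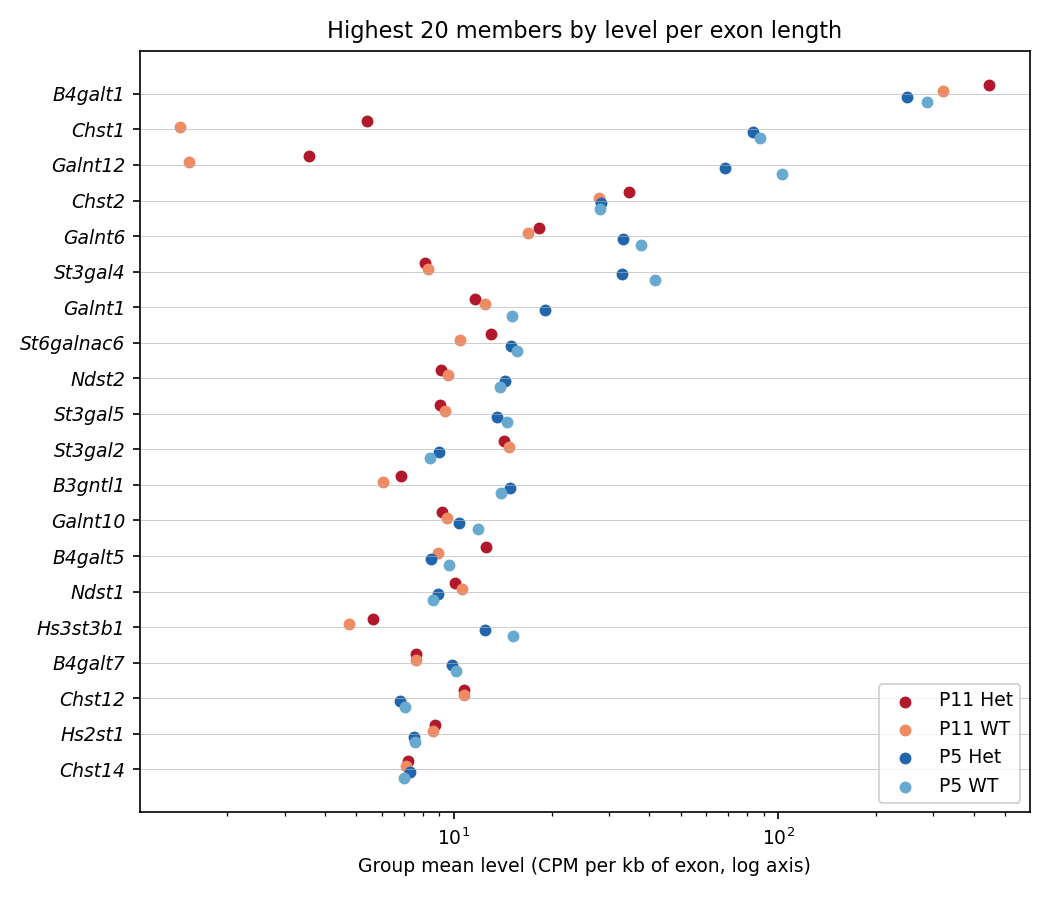
Group mean levels of the 20 highest genes, in CPM per kb of exon on a log axis, with 1 point per group. B4galt1 lies far to the right in every group (326 CPM per kb on average), while the points of Chst1 and Galnt12 are split widely between P11 and P5.

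The question of age, P11 against P5, was answered in each genotype. Enzymes of every family were among those called. In Het molars 30 of the 81 tested genes were higher at P11 (24.4% of all 21510 genes tested were) and 22 were lower (23.4% of all genes). In WT molars 28 were higher (24.8% of all genes) and 25 lower (24.7%). Together that was 64.2% of the tested genes in Het molars, against 47.8% of all genes, and 65.4% in WT molars, against 49.4%. The same shares of all genes apply to the counts by family below and are not repeated there. A gene was called at an adjusted p under 0.05 in edgeR's quasi-likelihood test with Benjamini-Hochberg adjustment over all genes tested. The median log2 fold change of the tested genes was 0.12 in Het and 0.08 in WT molars, against -0.01 for all genes in both, and the median size of the change was 0.58 and 0.48, against 0.37 and 0.39 for all genes. All P11 libraries lay above all P5 libraries for 18 genes in Het (15.9% of all genes) and 20 in WT (16.6%), and below them for 14 in Het (14.4%) and 17 in WT (15.5%). With the oral mucosa and muscle scores as covariates, 13 rather than 22 of the 81 genes were lower in Het molars, and the share of all genes called lower was then 15.8%, against 23.4% without covariates. The oral mucosa score (mean log2 CPM of the oral keratinocyte genes) did not overlap between the ages. It was 1.18 to 5.56 in P11 Het, 0.82 to 6.51 in P11 WT, -1.18 to 0.81 in P5 Het and -1.22 to -0.52 in P5 WT libraries. In the calls lost under these covariates, here and below, this score and age therefore cannot be told apart. When a 1.5-fold change was required as well, 18 rather than 28 genes were higher in WT molars (15.5% of all genes).

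Side by side, 23 genes were higher at P11 in both genotypes, 20 were lower in both, 9 were called in Het alone, 10 in WT alone, 0 in opposite directions and 19 in neither. For all 21510 genes the counts were 4239, 3911, 2135, 2477, 6 and 8742. A call in 1 genotype alone does not show that the genotypes differ. That difference was tested directly and is given at the end.

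**Figure D2:**
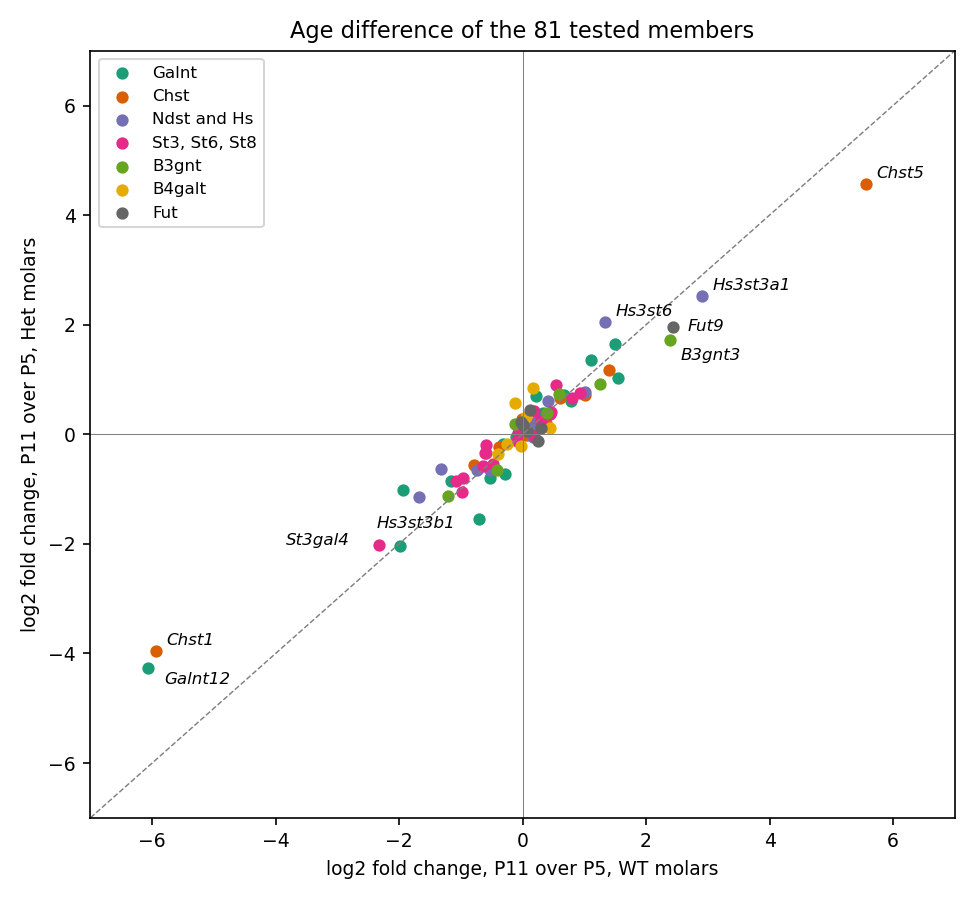
Log2 fold change of P11 over P5 for the 81 tested genes, Het molars on the vertical axis and WT molars on the horizontal axis, coloured by family, with the dashed line marking equal values. Chst1 and Galnt12 lie at the lower left, Chst5 at the upper right, and most of the other genes lie between -2 and 2 on both axes.

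Among the GalNAc-transferase entries, 8 of 19 tested were higher and 7 lower at P11 in Het molars, and 7 were higher and 6 lower in WT molars. These counts include the noncoding antisense RNA Galnt6os, which is not an enzyme and was called lower in both genotypes. Galnt12 (ENSMUSG00000039774, chr4:47091909-47123070, + strand, GRCm38) had the largest fall. It had 10.3, 16.5, 8.29, 2.77 and 3.01 CPM in the P11 Het libraries 1 to 5, and 133 to 182 with a median of 156 CPM in the P5 Het libraries. It had 4.25, 3.56, 3.59, 2.71 and 3.3 CPM in the P11 WT libraries 1 to 5, and 207 to 262 with a median of 235 CPM in the P5 WT libraries. Every P11 library lay far below every P5 library, and within P11 Het libraries 1 to 3 lay above libraries 4 and 5. The level of Galnt12 was 19.2-fold lower at P11 in Het molars (log2 fold change -4.26 ± 0.31 SE, adjusted p = 6.56e-11) and 67.3-fold lower in WT molars (-6.07 ± 0.35, adjusted p = 6.37e-13, edgeR).

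Galnt6 (ENSMUSG00000037280, chr15:100691813-100729376, − strand), another GalNAc-transferase, fell less. It had 67.7, 79.7, 57.5, 73.2 and 75.9 CPM in P11 Het libraries, and 115 to 137 with a median of 131 CPM in P5 Het libraries. It had 63.3, 64.5, 65.7, 69.2 and 65.3 CPM in P11 WT libraries, and 139 to 151 with a median of 147 CPM in P5 WT libraries. The ages did not overlap in either genotype, with log2 fold changes of -0.86 ± 0.07 in Het (adjusted p = 1.95e-10) and -1.15 ± 0.07 in WT molars (adjusted p = 1.01e-12, edgeR). The antisense Galnt6os shares 7.84% of its 100-base windows with Galnt6 exons, and reads from there cannot be told apart without strand. It had log2 fold changes of -2.03 in Het and -1.98 in WT molars. Galnt13 also fell, by 1.01 in Het and by 1.94 in WT molars on the log2 scale.

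Other GalNAc-transferases rose. Galnt18 averaged 8.41 ± 1.24 CPM in P11 Het (SD, n = 5) and 3.3 ± 0.329 CPM in P5 Het libraries (n = 6), a log2 fold change of 1.35, and its log2 fold change in WT molars was 1.11. Galnt3, which glycosylates the phosphate-regulating hormone FGF23, averaged 12.7 ± 2.26 CPM in P11 Het (SD, n = 5) and 7.76 ± 0.855 CPM in P5 Het libraries (n = 6), a log2 fold change of 0.71, against 0.68 in WT molars. Galnt17 (1.65 in Het, 1.502 in WT molars) and Galnt15 (1.04 and 1.54) rose at low levels, with all group means at or below 1.56 CPM. With the marker scores as covariates the calls of Galnt17 in both genotypes, of Galnt13 and Galnt15 in Het molars and of Galnt18 in WT molars were lost. Galnt1, the GalNAc-transferase of the third highest level per kb among its family, fell in Het molars (-0.72, adjusted p = 5.84e-05, edgeR) and had a log2 fold change of -0.28 in WT molars (adjusted p = 0.0753).

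Among the Chst sulfotransferases, 5 of 12 tested were higher and 2 lower at P11 in Het molars, and 5 were higher and 4 lower in WT molars. Chst1 (ENSMUSG00000027221, chr2:92599707-92615250, + strand), which adds sulfate to galactose in keratan sulfate, had the second largest fall. It had 21.7, 28.6, 17.4, 2.46 and 2.23 CPM in P11 Het libraries 1 to 5, and 209 to 240 with a median of 225 CPM in P5 Het libraries. It had 6.03, 3.87, 4.58, 2.98 and 1.75 CPM in P11 WT libraries 1 to 5, and 220 to 249 with a median of 236 CPM in P5 WT libraries. The ages were far apart in both genotypes, and within P11 Het libraries 1 to 3 lay above libraries 4 and 5. Chst1 was 15.5-fold lower at P11 in Het molars (log2 fold change -3.95 ± 0.46, adjusted p = 1.49e-07) and 61.3-fold lower in WT molars (-5.94 ± 0.52, adjusted p = 1.1e-09, edgeR). In limma-voom the Chst1 value in Het molars was -4.62.

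Chst5 (ENSMUSG00000031952, chr8:111889136-111910447, − strand), which adds sulfate to N-acetylglucosamine in keratan sulfate, changed the other way. It had 2.23, 3.12, 3.08, 3.17 and 2.94 CPM in P11 Het libraries, and 0.0514 to 0.23 with a median of 0.1 CPM in P5 Het libraries. It had 2.71, 2.6, 2.56, 3.24 and 3.58 CPM in P11 WT libraries, and 0 to 0.242 with a median of 0.0269 CPM in P5 WT libraries. In raw counts this was 96 to 143 in P11 Het, 102 to 141 in P11 WT, 2 to 8 in P5 Het and 0 to 9 in P5 WT libraries, of which 3 were at 0. The log2 fold change of 4.57 ± 0.41 in Het (adjusted p = 2.07e-09) and 5.56 ± 0.45 in WT molars (adjusted p = 3.18e-10, edgeR) therefore rests on few counts at P5, and its size depends on the prior count of the fit. In WT molars it was 6.89 without P5 WT 5, the library with 9 counts, and 6.26 in limma-voom. Chst1 and Chst5 both act on keratan sulfate, and P11 levels lay below P5 levels for Chst1 and above them for Chst5.

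Chst2, which adds sulfate to N-acetylglucosamine, had 196, 276, 287, 229 and 277 CPM in P11 Het libraries, and 184 to 227 with a median of 211 CPM in P5 Het libraries. It had 242, 187, 202, 200 and 198 CPM in P11 WT libraries, and 172 to 227 with a median of 208 CPM in P5 WT libraries. The groups overlapped at both genotypes, with log2 fold changes of 0.28 in Het (adjusted p = 0.0169) and -0.01 in WT molars (adjusted p = 0.952, edgeR). Of the 7 chondroitin and dermatan sulfotransferases, 2 were higher and 0 lower in Het molars, and 3 were higher and 2 lower in WT molars. Among them Chst12, which sulfates chondroitin, averaged 25.3 ± 2.31 CPM in P11 Het (SD, n = 5) and 16 ± 1.22 CPM in P5 Het libraries (n = 6), and rose by 0.66 in Het and by 0.60 in WT molars on the log2 scale. Chst7, another chondroitin sulfotransferase, rose by 1.16 and 1.40 at group means at or below 0.634 CPM, and both calls were lost with the marker scores as covariates (adjusted p = 0.0715 and 0.0507). Chst10, which makes the HNK-1 epitope, rose by 0.72 in Het and 1.02 in WT molars.

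**Figure D3:**
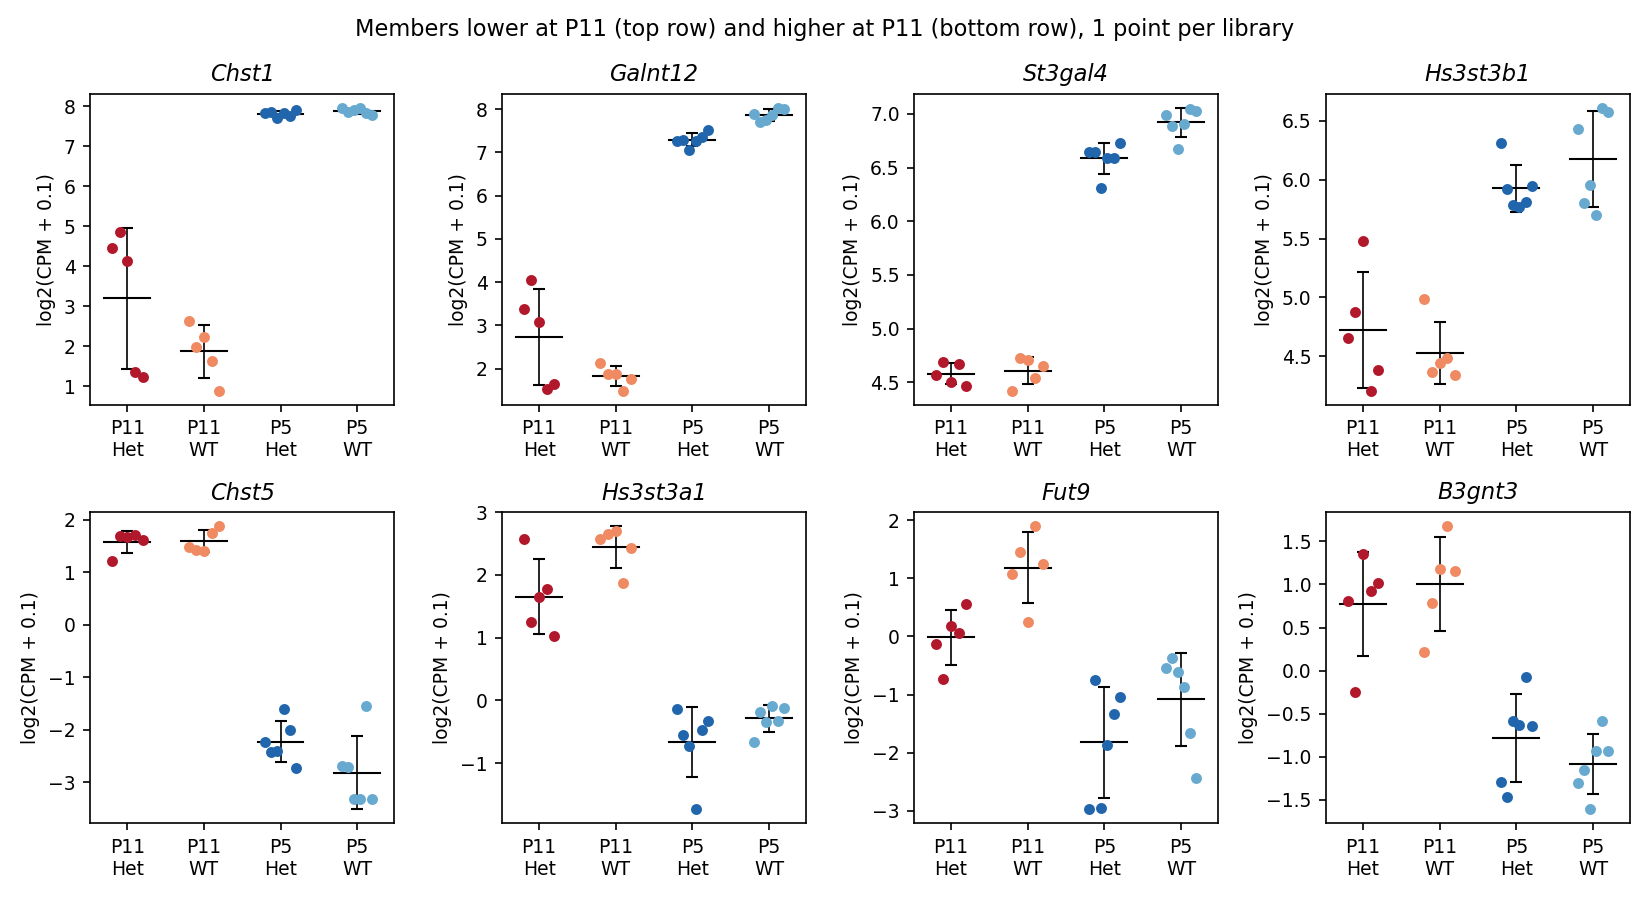
Log2(CPM + 0.1) of 8 genes in the 4 groups, with 1 point per library, a horizontal bar for the mean and an error bar of 1 SD (n = 5 at P11, n = 6 at P5). Chst1, Galnt12, St3gal4 and Hs3st3b1 in the upper panels are lower at P11, and Chst5, Hs3st3a1, Fut9 and B3gnt3 in the lower panels are higher at P11.

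Among the heparan sulfate sulfotransferases, 4 of 11 tested were higher and 3 lower in Het molars, and 4 were higher and 4 lower in WT molars. The Hs3st enzymes, which place a rare sulfate on glucosamine late in heparan sulfate synthesis, differed among themselves. Hs3st3b1 (ENSMUSG00000070407, chr11:63885792-63922290, − strand) had 25.1, 29.2, 44.6, 18.4 and 20.8 CPM in P11 Het libraries, and 54.5 to 79.4 with a median of 58.3 CPM in P5 Het libraries. It had 31.6, 20.6, 21.6, 22.3 and 20.2 CPM in P11 WT libraries, and 51.9 to 97.8 with a median of 74 CPM in P5 WT libraries. The ages did not overlap, and the level was 2.22-fold lower at P11 in Het (log2 fold change -1.15 ± 0.20, adjusted p = 4.9e-05) and 3.21-fold lower in WT molars (-1.68 ± 0.21, adjusted p = 2.91e-07, edgeR).

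Hs3st3a1 (ENSMUSG00000047759, chr11:64435332-64522841, + strand), on the same chromosome, had 5.86, 2.29, 3.03, 3.31 and 1.95 CPM in P11 Het libraries, and 0.201 to 0.808 with a median of 0.601 CPM in P5 Het libraries. It had 5.82, 6.16, 6.42, 3.58 and 5.28 CPM in P11 WT libraries, and 0.529 to 0.844 with a median of 0.74 CPM in P5 WT libraries. All P11 libraries lay above all P5 libraries, 5.73-fold in Het (log2 fold change 2.52 ± 0.28, adjusted p = 6.07e-08) and 7.47-fold in WT molars (2.90 ± 0.27, adjusted p = 3.91e-09, edgeR). With the oral mucosa and muscle scores as covariates the WT value was 3.55. Hs3st3a1 shares 39.0% of its 100-base windows with Hs3st3b1 or F930015N05Rik, and Hs3st3b1 shares 6.28% of its windows with Hs3st3a1.

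Hs3st6 (ENSMUSG00000039628, chr17:24752988-24758684, + strand) had 10.4, 7.33, 9.69, 7.29 and 9.27 CPM in P11 Het libraries, and 1.94 to 2.7 with a median of 2.05 CPM in P5 Het libraries. It had 11.3, 9.65, 9.05, 8.71 and 8.32 CPM in P11 WT libraries, and 2.81 to 4.74 with a median of 3.58 CPM in P5 WT libraries. The ages did not overlap, with log2 fold changes of 2.04 ± 0.14 in Het (adjusted p = 1.23e-11) and 1.34 ± 0.13 in WT molars (adjusted p = 9.77e-09, edgeR). Hs3st5 fell by 0.65 in Het and by 0.74 in WT molars on the log2 scale (adjusted p = 0.0276 and 0.0135, edgeR), and these calls were weak. In Het molars the call was lost without P5 Het 1, P5 Het 6, P11 Het 3, P11 Het 4 or P11 Het 5 (adjusted p from 0.0517 to 0.0827), and in WT molars without P5 WT 2 (0.0535). With the oral mucosa and muscle scores as covariates it was lost in both (0.372 in Het, 0.225 in WT molars).

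Of the enzymes that act earlier on heparan sulfate, Ndst2, which replaces acetyl groups by sulfate, averaged 41.4 ± 2.82 CPM in P11 Het (SD, n = 5) and 65.2 ± 9.12 CPM in P5 Het libraries (n = 6), a log2 fold change of -0.65, against -0.53 in WT molars. Ndst1, of the same reaction, had log2 fold changes of 0.17 in Het (adjusted p = 0.0766) and 0.30 in WT molars (adjusted p = 0.00251, edgeR). Ndst3, also of that reaction, averaged 1.52 ± 0.475 CPM in P11 WT (SD, n = 5) and 3.8 ± 0.921 CPM in P5 WT libraries (n = 6), a log2 fold change of -1.32 (adjusted p = 0.000271, edgeR), and gave -0.63 in Het molars (adjusted p = 0.0552). Hs6st2, which adds sulfate to glucosamine, rose by 0.77 in Het and by 1.01 in WT molars.

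Among the sialyltransferases, 5 of 18 tested were higher and 7 lower in Het molars, and 6 were higher and 8 lower in WT molars. St3gal4 (ENSMUSG00000032038, chr9:35046576-35119268, − strand), which caps galactose on glycoproteins with sialic acid, had the smallest p of the 81 tested genes in both genotypes. It had 23.7, 25.7, 22.6, 25.3 and 21.95 CPM in P11 Het libraries, and 79.4 to 106 with a median of 98.1 CPM in P5 Het libraries. It had 21.3, 26.3, 26.0, 23.2 and 25.0 CPM in P11 WT libraries, and 102 to 132 with a median of 123 CPM in P5 WT libraries. The ages did not overlap and the P11 libraries were close together. The level was 4.04-fold lower at P11 in Het (log2 fold change -2.01 ± 0.08, adjusted p = 1.81e-15) and 4.99-fold lower in WT molars (-2.32 ± 0.08, adjusted p = 2.1e-16, edgeR).

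St6gal1, which puts sialic acid on N-glycans, had 20.9, 21.8, 21.1, 20.3 and 17.9 CPM in P11 Het libraries, and 40.9 to 45.8 with a median of 41.8 CPM in P5 Het libraries. It had 18.2, 16.5, 21.7, 17.5 and 19.5 CPM in P11 WT libraries, and 33.7 to 40 with a median of 36.6 CPM in P5 WT libraries. The ages did not overlap, with log2 fold changes of -1.06 ± 0.07 in Het (adjusted p = 7.96e-12) and -0.98 ± 0.07 in WT molars (adjusted p = 2.97e-11, edgeR). St3gal5, which makes the ganglioside GM3, fell by 0.58 in Het and by 0.64 in WT molars. Of the polysialyltransferases, St8sia2 fell by 0.80 in Het and by 0.96 in WT molars, while St8sia4 rose by 0.75 and 0.93. With the marker scores as covariates the St8sia2 calls were lost (adjusted p = 0.093 in Het and 0.0674 in WT molars). St8sia6 fell by 0.85 and by 1.09, and St3gal2, which acts on core O-glycans and gangliosides, rose by 0.66 in Het and by 0.80 in WT molars.

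Among the chain-extending enzymes, 3 of 7 tested B3gnt genes were higher and 1 lower at P11 in each genotype. B3gnt3 (ENSMUSG00000031803, chr8:71690756-71701789, − strand), which extends core O-glycans with N-acetylglucosamine, had 1.65, 0.742, 2.45, 1.8 and 1.92 CPM in P11 Het libraries, and 0.261 to 0.847 with a median of 0.543 CPM in P5 Het libraries. It had 1.06, 1.63, 2.16, 3.1 and 2.13 CPM in P11 WT libraries, and 0.228 to 0.566 with a median of 0.386 CPM in P5 WT libraries. In Het molars P11 library 2 lay within the P5 range, and in WT molars the ages did not overlap. The log2 fold change was 1.73 ± 0.32 in Het (adjusted p = 8.01e-05) and 2.39 ± 0.33 in WT molars (adjusted p = 1.48e-06, edgeR). B3gnt9 rose by 0.92 and 1.25, and B3gnt8, which extends branched N-glycans, by 0.74 and 0.59. B3gntl1 fell by 1.12 in Het and by 1.20 in WT molars.

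Of the 7 B4galt genes, 3 were higher and 2 lower at P11 in Het molars, and 1 was higher and 2 lower in WT molars. B4galt1 (ENSMUSG00000028413, chr4:40804602-40854005, − strand) had 1164, 2144, 2626, 1406 and 2126 CPM in P11 Het libraries, and 851 to 1364 with a median of 964 CPM in P5 Het libraries. It had 1605, 1113, 1274, 1491 and 1326 CPM in P11 WT libraries, and 718 to 1552 with a median of 1215 CPM in P5 WT libraries. The ages overlapped in both genotypes, with log2 fold changes of 0.85 ± 0.19 in Het (adjusted p = 0.000865) and 0.16 ± 0.19 in WT molars (adjusted p = 0.512, edgeR). The test of the difference between the genotypes gave 0.68 ± 0.27 and an adjusted p of 0.434. At P5, B4galt1 (1291 to 1552 CPM) and Hs3st3b1 (79.4 to 97.8) were highest in P5 WT 1, 5 and 6 and P5 Het 1. Col1a1 was lowest there, at 8872 to 14810 CPM against at least 22200 in other P5 libraries. Dspp, also an odontoblast marker, did not split this way. P11 Het 2 and 3 also had low Col1a1 (8123 and 9186 CPM), but P11 Het 5 had 24150. The part of cell content in these levels was not tested. B4galt5, which starts lactosylceramide, gave 0.57 in Het (adjusted p = 0.00642) and -0.12 in WT molars (adjusted p = 0.587, edgeR), and the difference gave 0.69 ± 0.24 (adjusted p = 0.405). B4galt7, which builds the linker of glycosaminoglycans to their core proteins, fell by 0.36 in Het and by 0.40 in WT molars.

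Among the fucosyltransferases, 2 of 7 tested were higher and 0 lower in each genotype. Fut9 (ENSMUSG00000055373, chr4:25609332-25800244, − strand), which makes the Lewis x structure, had 0.814, 0.502, 1.03, 0.946 and 1.37 CPM in P11 Het libraries, and 0.0279 to 0.493 with a median of 0.236 CPM in P5 Het libraries. It had 2.01, 2.65, 1.08, 3.62 and 2.28 CPM in P11 WT libraries, and 0.0852 to 0.672 with a median of 0.504 CPM in P5 WT libraries. The ages did not overlap in either genotype, with log2 fold changes of 1.96 ± 0.49 in Het (adjusted p = 0.00195) and 2.43 ± 0.45 in WT molars (adjusted p = 9.08e-05, edgeR). Fut8, which adds the core fucose of N-glycans, gave 0.12 in Het (adjusted p = 0.133) and 0.30 in WT molars (adjusted p = 0.000536, edgeR). Markers of several cell types moved with age too. In each genotype 4 of 4 secretory ameloblast genes were lower at P11, and 8 of 8 maturation ameloblast, 5 of 5 osteoclast, 7 of 7 erythroid and 11 of 11 oral keratinocyte genes were higher. Of 5 tested nerve and Schwann cell genes, 5 were higher in Het and 4 in WT molars. The osteoclast genes summed to 241 to 364 CPM in P11 Het and 34.2 to 70.6 CPM in P5 Het libraries, and to 292 to 395 CPM in P11 WT and 42.5 to 65.5 CPM in P5 WT libraries. The osteoblast and bone genes summed to 1380 to 2080 CPM in P11 Het, 1610 to 2450 in P11 WT, 605 to 750 in P5 Het and 652 to 738 in P5 WT libraries. In the same order the endothelial genes summed to 167 to 218, 170 to 203, 146 to 154 and 140 to 151 CPM. The sums of the odontoblast, cartilage, and myeloid and lymphoid genes overlapped between the ages in both genotypes. The oral keratinocyte and muscle scores were entered as covariates, with the counts and lost calls given above, but the oral keratinocyte score and age cannot be told apart. The part of the other markers in these age differences was not tested.

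Genes that supply the donors, build the chains or carry them were counted in lists. The same shares of all genes tested apply to each list. In Het molars 24.4% of all genes were higher and 23.4% lower at P11, and in WT molars 24.8% were higher and 24.7% lower. Of 14 genes of sulfate supply and sulfatases, 4 were higher and 5 lower at P11 in Het molars, and 4 were higher and 6 lower in WT molars. Papss2, which makes the sulfate donor PAPS, averaged 42.6 CPM in P11 Het and 119 CPM in P5 Het libraries (log2 fold change -1.49), and 48.3 CPM in P11 WT and 123 CPM in P5 WT libraries (-1.35). Slc26a1, a sulfate exchanger, averaged 16.8 CPM in P11 Het and 1.70 CPM in P5 Het libraries (3.30), and 14.9 CPM in P11 WT and 2.01 CPM in P5 WT libraries (2.89). Slc26a2, the sulfate transporter mutated in human diastrophic dysplasia, fell by 1.11 in Het and by 0.88 in WT molars.

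Of 21 genes of glycosaminoglycan linkers and chains, 9 were higher and 8 lower in Het molars, and 9 were higher and 5 lower in WT molars. Xylt1, which starts the linker, fell by 1.14 in Het and by 1.19 in WT molars, and Csgalnact1, which starts chondroitin chains, fell by 1.26 and by 1.04. Of 29 proteoglycan core proteins, 12 were higher and 12 lower in Het molars, and 12 were higher and 11 lower in WT molars. In either direction, 47.8% of all genes tested were called in Het and 49.4% in WT molars. Of 14 tested genes of O-glycan extension, 4 were higher and 7 lower in Het molars, and 3 were higher and 6 lower in WT molars. C1galt1, which makes the core structure that follows the GalNAc-transferases, fell by 0.75 in Het and by 0.49 in WT molars, and Gcnt1, which branches it, fell by 1.20 and by 0.90. Of 11 tested genes of N-glycan branching, 5 were higher and 2 lower in Het molars, and 6 were higher and 2 lower in WT molars, with Mgat5, a branching enzyme, at -1.92 and -3.13. Of 8 tested genes of sialic acid supply and removal, 4 were higher and 1 lower in Het and 2 higher and 1 lower in WT molars. Of 11 genes of fucose supply and O-fucosylation, 4 were higher and 2 lower in Het and 3 higher and 3 lower in WT molars.

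The question of the Tgfbr2 allele, Het against WT, was answered at each age. At P5, 2 of the 81 tested genes were lower in Het molars (0.195% of all genes were) and 0 were higher (0.0651%) in edgeR. DESeq2 and limma-voom gave the same counts. Over all genes DESeq2 called 0.418% lower and 0.2% higher, and limma-voom called 0.191% lower and 0.0837% higher. At an unadjusted p under 0.05 there were 10 genes (6.22% of all genes). The 2 lower genes were Hs3st6 and St3gal4, and when a 1.5-fold change was required as well, Hs3st6 alone was left (0.102% of all genes). The median log2 fold change of the tested genes was -0.023, against -0.0042 for all genes.

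Hs3st6 averaged 2.13 ± 0.284 CPM in P5 Het and 3.71 ± 0.659 CPM in P5 WT libraries (SD, n = 6 each), and from the values above the groups did not overlap. It was 1.74-fold lower in Het molars (log2 fold change -0.80 ± 0.13, adjusted p = 0.00634, edgeR). Within the libraries of prefix 3 the means were 2.05 CPM in Het and 3.45 CPM in WT, and within prefix 4 they were 2.02 CPM in Het and 3.85 CPM in WT. Both prefixes thus gave lower Het levels, at -0.75 and -0.93 on the log2 scale, and prefix 5 held Het libraries only. The call held without each library in turn, at adjusted p from 0.00417 to 0.0221, and was lost without the 5 libraries of raised oral mucosa or muscle markers (adjusted p = 0.0711), where the log2 fold change was -0.76 ± 0.16. At P11 the Hs3st6 log2 fold change was -0.10 ± 0.14 (adjusted p = 0.859).

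St3gal4 averaged 96.3 ± 9 CPM in P5 Het and 122 ± 11.1 CPM in P5 WT libraries (SD, n = 6 each), and the groups overlapped slightly. It was 1.26-fold lower in Het molars (log2 fold change -0.34 ± 0.07, adjusted p = 0.0458, edgeR). Within prefix 3 the means were 99.9 CPM in Het and 123 CPM in WT, and within prefix 4 they were 87.9 CPM in Het and 121 CPM in WT. The call sat at the threshold: leaving out a single library ended it in 17 of 22 cases, with adjusted p from 0.0156 to 0.127, and it held only without P5 Het 6, P5 WT 3, P11 Het 2, P11 Het 5 or P11 WT 1. The St3gal4 adjusted p was 0.0788 with no filter on low counts, 0.0965 with the P5 libraries fitted alone and 0.078 with the marker scores as covariates, and without the 5 libraries of raised markers it was 0.313 at a log2 fold change of -0.34 ± 0.09. At P11 the St3gal4 log2 fold change was -0.03 ± 0.08 (adjusted p = 0.932).

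Other genes were separated by genotype at P5 without passing the test. In 4 genes every P5 Het library lay below every P5 WT library (0.507% of all genes did) and in 1, St6gal1, every P5 Het library lay above (0.344%). The 4 were Hs3st6, Galnt6, Galnt12 and St6galnac3. St6galnac3, which adds sialic acid to O-glycans and gangliosides, had 17.1 to 20.6 with a median of 19.4 CPM in P5 Het and 20.8 to 27.4 with a median of 23.2 CPM in P5 WT libraries (log2 fold change -0.29 ± 0.10, adjusted p = 0.485, edgeR). Galnt6 gave -0.19 ± 0.06 (adjusted p = 0.48) and St6gal1 0.21 ± 0.06 (adjusted p = 0.35). Galnt12, singled out after its values were seen, had 133 to 182 CPM in P5 Het and 207 to 262 CPM in P5 WT libraries, as given above. Its log2 fold change was -0.58 ± 0.25 (adjusted p = 0.718) in the fit of all 22 libraries, which share 1 estimate of the spread, and -0.57 ± 0.08 (adjusted p = 0.00265, edgeR) when the P5 libraries were fitted alone.

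**Figure D4:**
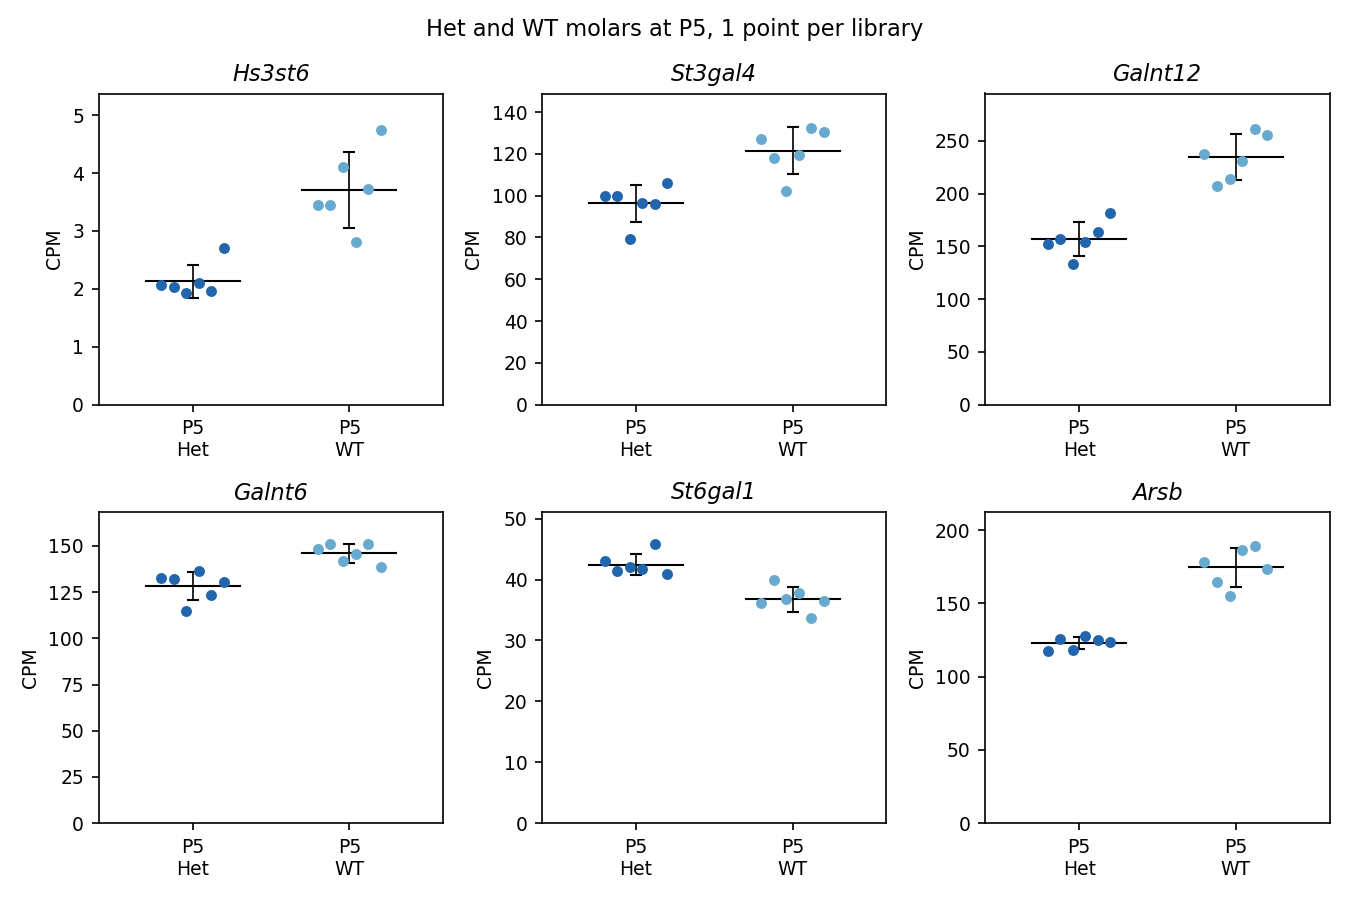
CPM of 5 of the enzymes and of the sulfatase Arsb in P5 Het and P5 WT libraries, with 1 point per library, a horizontal bar for the mean and an error bar of 1 SD (n = 6 each). Hs3st6, Galnt12, Galnt6 and Arsb lie lower in all P5 Het libraries, St6gal1 lies higher in all P5 Het libraries, and St3gal4 overlaps slightly.

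Of the counted lists, sulfate supply and sulfatases held 2 genes called at P5, both lower in Het molars (0.195% of all genes tested were). Arsb, the lysosomal sulfatase of chondroitin and dermatan sulfate, had 117 to 128 with a median of 124 CPM in P5 Het and 155 to 189 with a median of 176 CPM in P5 WT libraries. The groups did not overlap, and the log2 fold change was -0.51 ± 0.09 (adjusted p = 0.00728, edgeR). Galns, the lysosomal sulfatase of keratan and chondroitin sulfate, had 14.2 to 15.5 with a median of 14.8 CPM in P5 Het and 16.4 to 21.7 with a median of 20.4 CPM in P5 WT libraries (-0.42 ± 0.08, adjusted p = 0.0166, edgeR). The Galns call was lost under the replicate block (adjusted p = 0.0553), under the library-name prefix block (0.0559), without the 5 libraries of raised markers (0.183, at a log2 fold change of -0.41) and without P5 Het 4, P5 Het 6, P5 WT 1 or P5 WT 5. Over all 22 libraries left out in turn its adjusted p ran from 0.00959 to 0.0551, and the Arsb call held in each case. At the same age the 8 maturation ameloblast genes summed to 1050 to 1860 CPM in Het and 1580 to 2730 CPM in WT libraries, and the 4 secretory ameloblast genes to 122000 to 162000 CPM in Het and 153000 to 168000 CPM in WT libraries. Of the maturation genes, Klk4 did not overlap between the genotypes at P5, at 3.57 to 6.33 CPM in Het and 6.7 to 11.02 CPM in WT libraries. Odam and Amtn overlapped. The part of the maturation and secretory ameloblast genes in the P5 differences was not tested.

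At P11, 0 of the 81 tested genes were called in edgeR, higher (0.0232% of all genes) or lower (0.00465%), while 14 had an unadjusted p under 0.05 (9.85% of all genes). DESeq2 called 2 higher, Chst1 and Galnt12, both at an adjusted p of 0.0252, and limma-voom called 0. Over all genes DESeq2 called 0.325% higher and 0.172% lower, and limma-voom called 0.0232% higher and 0.0697% lower. Chst1 averaged 14.5 ± 11.8 CPM in P11 Het and 3.84 ± 1.62 CPM in P11 WT libraries (SD, n = 5 each), and its log2 fold change was 1.92 ± 0.46 (adjusted p = 0.138, edgeR). Galnt12 averaged 8.18 ± 5.71 CPM in P11 Het and 3.48 ± 0.557 CPM in P11 WT libraries (SD, n = 5 each), 1.23 ± 0.31 (adjusted p = 0.157).

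The P11 libraries split by the first digit of their names. For Chst1, prefix 1 gave means of 22.6 CPM in Het and 4.83 CPM in WT (log2 difference 2.23, n = 3 each), and prefix 2 gave 2.34 CPM in Het and 2.36 CPM in WT (-0.01, n = 2 each). For Galnt12, prefix 1 gave 11.7 CPM in Het and 3.80 CPM in WT (1.62), and prefix 2 gave 2.89 CPM in Het and 3.01 CPM in WT (-0.06). The difference thus appeared within prefix 1 and not within prefix 2. The enamel matrix gene Enam was likewise highest in P11 Het libraries 1 to 3. It had 2367, 2713, 1864, 141 and 70.3 CPM in P11 Het libraries 1 to 5 and 356, 200, 388, 33.6 and 39.7 CPM in P11 WT libraries 1 to 5. Unlike Chst1 and Galnt12, Enam was higher in Het within prefix 2 as well. Of the other secretory ameloblast genes, Amelx and Ambn were also highest in P11 Het libraries 1 to 3. Mmp20 differed little, at 126, 148, 123, 102 and 98.1 CPM in P11 Het and 117, 121, 122, 106 and 122 CPM in P11 WT libraries. The part of these genes in the result was not tested. Without P11 Het 4 or P11 Het 5 the edgeR adjusted p of Chst1 was 0.0257 or 0.0196 and that of Galnt12 was 0.0287 or 0.0437. Over all single libraries left out they ran from 0.0196 to 0.341 for Chst1 and from 0.0287 to 0.456 for Galnt12. With the prefix as a block Chst1 gave 1.52 ± 0.28 (adjusted p = 0.017) and Galnt12 an adjusted p of 0.0518. More of all genes were called higher in these settings too. The shares were 0.064% without P11 Het 4, 0.0869% without P11 Het 5 and 0.219% under the block, against 0.0232% with all 22 libraries and no block. Without the 5 libraries of raised markers Chst1 gave 1.18 (adjusted p = 0.611). Those libraries include P11 Het 2 and both P11 WT libraries of prefix 2. That setting thus sets Het libraries of prefixes 1 and 2 against WT libraries of prefix 1 alone.

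**Figure D5:**
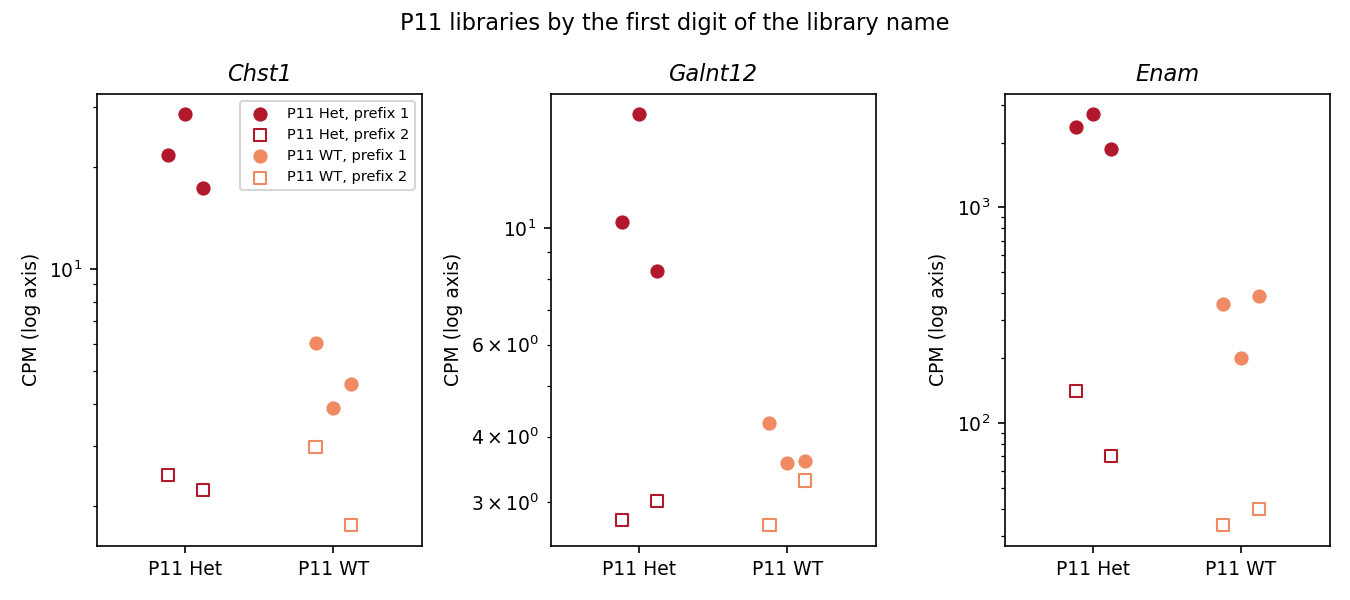
CPM on log axes of Chst1, Galnt12 and the enamel matrix gene Enam in P11 Het and P11 WT libraries, with 1 symbol per library, filled for library-name prefix 1 and open for prefix 2. The 3 P11 Het libraries of prefix 1 lie highest in all 3 panels, and the 2 P11 Het libraries of prefix 2 lie near the WT libraries for Chst1 and Galnt12.

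In 2 genes every P11 Het library lay below every P11 WT library (0.748% of all genes did), and in 0 genes every one lay above (0.614%). Fut8 had 31.3, 30.3, 30.0, 31.0 and 28.8 CPM in P11 Het and 35.6, 37.7, 36.7, 32.6 and 37.7 CPM in P11 WT libraries (log2 fold change -0.25 ± 0.07, adjusted p = 0.219, edgeR). B3gnt9 had 15.5, 13.2, 12.04, 13.6 and 14.8 CPM in P11 Het and 17.7, 18.8, 20.3, 16.03 and 15.8 CPM in P11 WT libraries (-0.36 ± 0.11, adjusted p = 0.327). Chst2 gave 0.30 ± 0.10 (adjusted p = 0.341), with overlapping groups.

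Averaged over both ages, 0 of the 81 genes were called in edgeR (0.172% of all genes were), and 14 had an unadjusted p under 0.05 (6.85% of all genes). DESeq2 called 1 (0.563% of all genes) and limma-voom called 0 (0.135%). Hs3st6 was nearest, at a log2 fold change of -0.45 ± 0.10 (adjusted p = 0.0517, edgeR), with adjusted p of 0.00213 in DESeq2 and 0.0205 under the replicate block. It passed without P5 WT 4 (0.0305), P5 Het 6 (0.0345) or P11 Het 1 (0.0416). Fut9 gave -1.08 ± 0.34 (adjusted p = 0.316). The test of whether the age difference differed between genotypes also called 0 of the 81 genes in edgeR (0.0139% of all genes). It gave 11 at an unadjusted p under 0.05 (10.3% of all genes). DESeq2 called 1 (0.26% of all genes) and limma-voom 0 (0.0139%). Galnt12 had the smallest p there: its fall with age was smaller in Het than in WT molars by 1.81 ± 0.40 on the log2 scale (adjusted p = 0.17, edgeR, and 0.015 in DESeq2). Without P11 Het 4 or P11 Het 5 the adjusted p was 0.0218 or 0.0249, and with the prefix as a block it was 0.0304. In these settings 0.032%, 0.0366% and 0.107% of all genes were called higher, against 0.0139% with all 22 libraries and no block. For Chst1 the difference was 1.99 ± 0.59 (adjusted p = 0.354), and for Hs3st6 it was 0.70 ± 0.19 (adjusted p = 0.286).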

How the data were processed

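Total RNA of whole first mandibular molars was made into Nextera XT libraries and sequenced as paired ends, per the labels' protocols. There were no unique molecular identifiers, so reads copied in amplification cannot be told apart from separate molecules. The submitters' processing notes name STAR 2.7.3a, GRCm38, DESeq2, edgeR and limma. For the read counter and its annotation, no source used here gives a name. The authors deposited raw counts per gene for all 22 libraries and a normalized signal table that is their count divided by a constant per library (counts per TMM-scaled library size, as CPM). The genes were found in the signal table by symbol, and all values and tests were computed from the raw counts. The 18 features of other organisms were left out and held at most 0.000457% of a library.

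Tests used edgeR 4.0.16 in R 4.3.3: TMM factors, genes kept by filterByExpr (minimum count 10, total 15), 1 fit of the 4 groups with 18 residual degrees of freedom (common dispersion 0.0381), quasi-likelihood tests and Benjamini-Hochberg adjustment over 21510 genes. The script was tested on simulated data. Lengths, positions and overlaps came from GENCODE M21 and promoters from RefSeq, both on GRCm38. Library totals were 32903949 to 45343744 counts. No pair of libraries of a group agreed within sampling noise (chi-square per degree of freedom 6.7 to 95.9). Where nothing says that libraries of a group came from separate animals, p-values measure the spread between these libraries.

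The genes, the pathway lists and the marker lists were chosen with earlier results of these data known. Named genes were the 12 with the highest and the 12 with the lowest mean age log2 fold change among those called in the same direction in both genotypes, every gene called by genotype with the 5 of smallest p in each comparison, and the 12 of highest level per kb with the highest of each family. Other names describe a family, and Galnt12 at P5 was singled out after its values were seen. Alternatives were DESeq2 1.42.0, its size factors in edgeR, limma-voom (limma 3.58.1), no filter, the compared groups alone, a replicate block, a library-name prefix block, leaving out the 5 libraries of raised oral mucosa or muscle markers, marker scores as covariates, an added 1.5-fold threshold, the longest transcript as gene length, and leaving out each library in turn.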

Additional observations from a re-analysis of the deposited data

Results flagged for a closer look

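In groups of 5 or 6 libraries, 1 library can lie far from the rest of its group. Of 148 such groups of values, 11 held a library that Dixon's test at the 95% level sets apart, in 9 genes, and chance gives about 1 in 20.

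At P11, Chst5 had its lowest Het value in P11 Het 1, at 2.23 CPM, against 2.94 to 3.17 in the other P11 Het libraries. P11 WT 1 had the highest value of its group for Chst2, at 242 CPM against 187 to 202, and for Hs3st3b1, at 31.6 CPM against 20.2 to 22.3. At P5, P5 Het 1 had the highest Chst7, at 0.558 CPM against 0.116 to 0.249, and the highest Hs3st3b1, at 79.4 CPM against 54.5 to 61.7 in the other P5 Het libraries. P5 Het 2 had the highest B3gntl1, at 59.7 CPM against 49.8 to 52.3. P5 Het 3 had the highest Fut11, at 25.8 CPM against 18.3 to 21.1, and the lowest St3gal4, at 79.4 CPM against 96.3 to 106. P5 Het 6 had the highest Hs3st6 of its group, at 2.7 CPM against 1.94 to 2.1. P5 WT 2 had the highest Chst10, at 6.29 CPM against 3.72 to 4.36, and P5 WT 5 the highest Chst5, at 0.242 CPM against 0 to 0.0557 in the other P5 WT libraries.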

How the results depend on the processing

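No result for the named genes reversed under an alternative. Over the alternatives other than leaving out libraries one by one, the named genes kept their side of the threshold in 547 results, gained a call in 9 and lost one in 25. Over single libraries left out they kept it in 1526, gained a call in 9 and lost one in 27. In Het molars, 13 genes rather than 22 were lower at P11 with the oral mucosa and muscle scores as covariates, where 15.8% of all genes were called lower, against 23.4% without them, and in WT molars 18 rather than 28 were higher when a 1.5-fold change was required as well. For Het against WT at P11, the genes called higher numbered 2 in DESeq2 (0.325% of all genes) and 1 under a block for the library-name prefix (0.219%). They numbered 0 to 2 over single libraries left out. Of all genes, 0.064% were higher without P11 Het 4 and 0.0869% without P11 Het 5, against 0.0232% with all 22 libraries. For Het against WT at P5, the genes called lower numbered 1 when a 1.5-fold change was required (0.102% of all genes) and 1 with no filter on low counts (0.0956%). They numbered 0 without the 5 libraries of raised oral mucosa or muscle markers (0.05%) and 1 with the marker scores as covariates (0.153%). Over single libraries left out they numbered 1 to 2. For the mean of both ages, 1 gene was called lower in DESeq2 (0.33% of all genes), 1 under the replicate block (0.116%) and 1 under the prefix block (0.228%). Over single libraries left out, 0 to 1 were. For the difference of the age effect between genotypes, 1 gene was called higher in DESeq2 (0.191% of all genes) and 1 under the prefix block (0.107%). Over single libraries left out, 0 to 1 were. The genes higher and lower at P11 ranged from 29 to 32 and from 19 to 23 in Het molars, and from 26 to 30 and from 22 to 25 in WT molars, over single libraries left out. The cause of these changes was not tested, beyond the fewer libraries or genes that some settings hold. Whether the replicate numbers pair the libraries could not be decided. The deviations of same-numbered libraries correlated at -0.13 to 0.21, with pairs across the ages included. Between Het and WT libraries at P5 they correlated at 0.04 to 0.21, and differently numbered libraries were not compared. Under the replicate block the genes higher and lower at P11 numbered 30 and 21 in Het and 28 and 24 in WT molars, and those lower in Het at P5 numbered 2. No age result could be had under the prefix block, because no prefix holds both ages. With the length of the longest transcript in place of all exons, the mean level moved to 19.6 CPM per kb for Galnt1 and to 25.7 CPM per kb for St6galnac6. Genes of few counts, such as Chst5 at P5 with 0 to 9 counts per library, are limited by depth.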
